A study of Mus musculus with 14 samples.

Results

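The genes described here are the Wnt ligands, their receptors and co-receptors, and the R-spondins with their receptors. Transcription factors of the Wnt pathway and feedback genes that restrain it are included. Members were taken by symbol from the deposited count table: every Wnt and Fzd gene, together with Lrp5, Lrp6, Ror1, Ror2, Ryk, Rspo1 to Rspo3, Lgr4 to Lgr6, Znrf3, Rnf43, Lef1, Tcf7, Axin2, Nkd1, Nkd2 and Notum. This gave 49 of 23331 genes with 48 distinct symbols, since Fzd10 is listed under 2 identifiers. A gene was tested when it reached at least 1 CPM (counts scaled to a common library size) in at least 3 of the 14 libraries, which 37 members did.

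The libraries came from bone marrow stromal cell clones of adult C57Bl/6 mice that carry the irtTA-GBD*-TAg transgene. In all of them large T antigen had been induced with dexamethasone and doxycycline to let the cells grow, and RNA was taken after 3 days without either inducer. Clones were sorted by what they formed in culture: bone, fat and cartilage (OAC), bone and fat (OA), bone alone (O) or fat alone (A), with 3 libraries in each group. Libraries numbered 1 and 2 each hold a single clone, from a different mouse each, whereas number 3 combines further clones of the same animals. The p-values therefore measure the spread between clones and pools of few animals. Whether a number marks the same mouse in every group is not stated in the labels. A pool that formed bone and cartilage (OC3) and a pool that formed fat and cartilage (AC3) have 1 library each. All cells were conditionally immortalised, and RNA was measured before differentiation.

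Wnt ligands bind frizzled receptors with Lrp5 or Lrp6, which stabilises beta-catenin and lets Tcf7 and Lef1 activate target genes. R-spondins, through Lgr4 to Lgr6, keep the ubiquitin ligases Znrf3 and Rnf43 from removing frizzleds, while Ror1, Ror2 and Ryk carry signals that do not need beta-catenin. In marrow stroma, beta-catenin-dependent Wnt signalling is known to favour bone-forming over fat-forming cells.

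Total counts per library ranged from 16888190 to 26076539, and the limit that a count of 0 allows (3 counts) was 0.113 to 0.191 CPM. Libraries differed in how gene levels followed GC content: the rank correlation across genes was 0.67 in OA2 and 0.53 in O1, against -0.55 in OAC3, OC3 and AC3. The summed stromal markers (Col1a1, Col1a2, Pdgfra, Pdgfrb, Prrx1, Cxcl12, Twist2, Lum) ran from 18000.0 to 23200.0 CPM in the A libraries and from 37600.0 to 84400.0 CPM in the other 11, with Lum at most 0.609 CPM in any library. Of these 8 markers, Col1a1 and Col1a2, which make up most of the sum, lay lower in all A libraries than in all others. Twist2 lay higher in A (15.4 to 19.7 CPM, against at most 14.8), and 5 overlapped, among them Cxcl12, whose highest library was A2 (5130.0 CPM). Markers of blood, endothelial, Schwann, muscle and epithelial cells summed to at most 30.3 CPM per list, and Ptprc was at most 0.0379 CPM. The part of the GC trend and of this collagen difference in the results below was not tested. With a GC offset for each library, edgeR called 0 members in the comparisons between groups. That count was 0 without the offset too, so it cannot show what the offset changes. The lowest edgeR FDR of a member for O against A went from 0.16 to 0.0785 with the offset. DESeq2 was not run with a GC offset.

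In the 6 comparisons between groups, edgeR's quasi-likelihood test called none of the 37 tested members at a Benjamini-Hochberg FDR under 0.05. The second test, DESeq2, called Ror2 and Wnt5b higher and Rspo2 lower in O than in A, Ror2 higher in OA than in A, Fzd9 higher in OAC than in A, and Rspo2 higher in OAC than in O. The A libraries thus stood low for the receptor Ror2, and the O libraries low for the agonist Rspo2 and high for the ligand Wnt5b. The comparisons share libraries, so their values are given side by side and are not independent of each other.

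**Figure D1:**
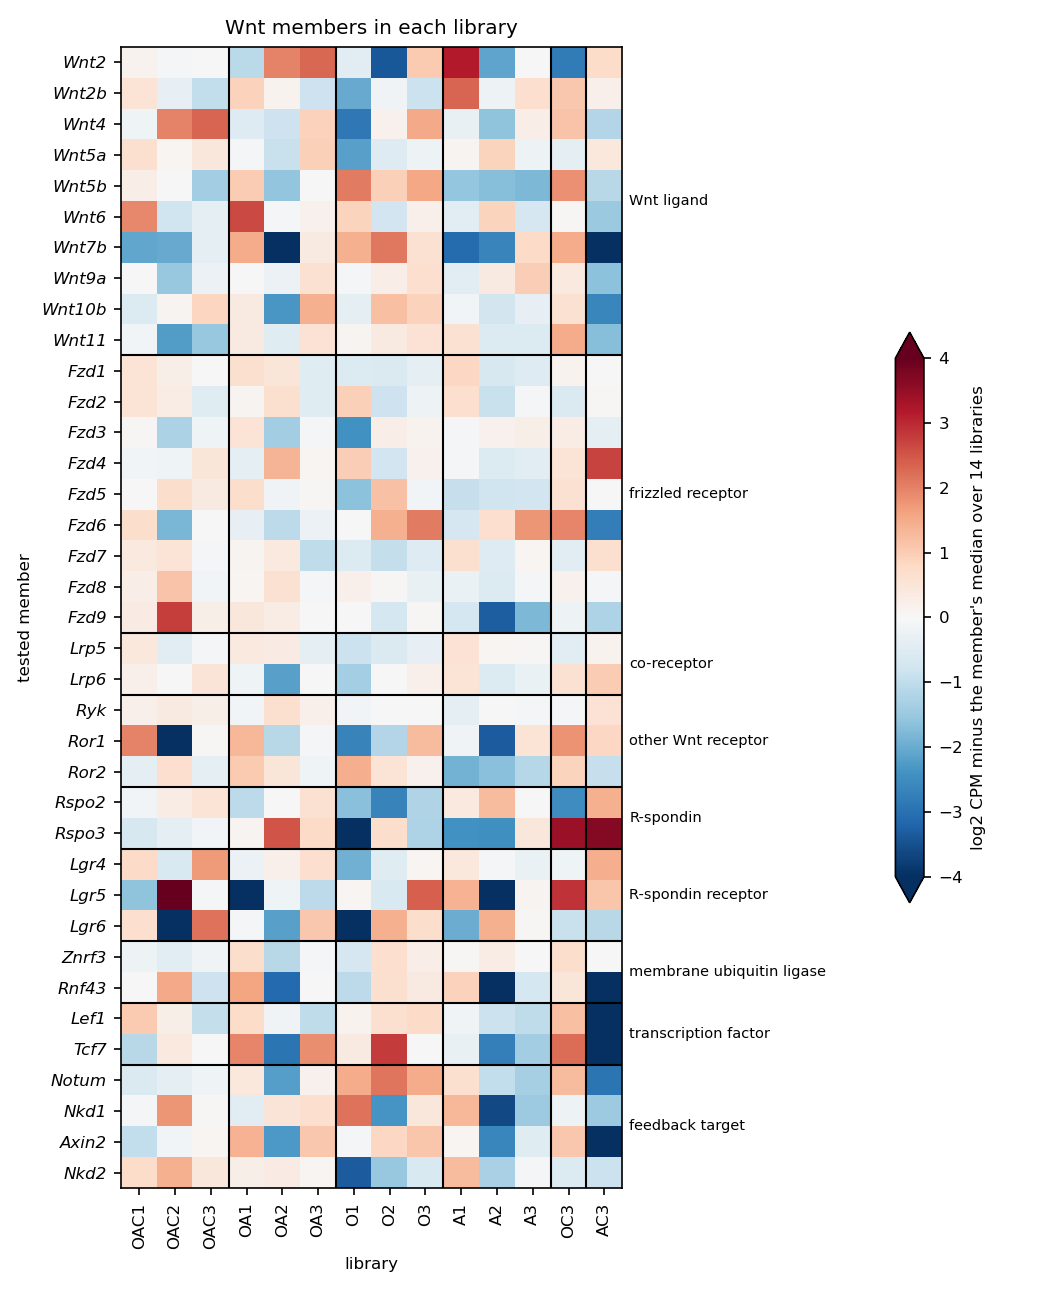
Level of each of the 37 tested Wnt members (rows, by role) in each of the 14 libraries (columns, by group); colour is log2 CPM minus that member's median over the 14 libraries, with blue below and red above. Ror2 and Wnt5b are blue in the A libraries, Rspo2 is blue in the O libraries and OC3, and Axin2, Lef1, Tcf7 and Rnf43 are dark blue in AC3.

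Among the 19 ligand genes, 10 were tested, and Wnt10b, a ligand of the beta-catenin pathway known to favour bone formation, was the most abundant per length. On the scale of CPM per exonic kilobase (RPKM), the ligands summed to between 11.0 in OA2 and 70.6 in OA3, with a median of 30.8. Wnt10b made up from 26.7% of that sum in AC3 to 78.4% in O2, with a median of 60.8%, and led in 13 of 14 libraries. In AC3 the leading ligand was Wnt5a, which signals mainly without beta-catenin, at 52.1% of the sum. Wnt10b and Wnt5a together held between 58.6% (OA2) and 87.0% (OA3) of the ligand RPKM.

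Wnt10b stood at 30.8, 49.1 and 82.1 CPM in the OAC libraries, 58.1, 9.11 and 122.3 in OA, 34.2, 104.7 and 86.0 in O, and 41.7, 27.0 and 36.0 in A. OC3 had 69.5 CPM and AC3 7.46 CPM. The groups overlapped, and OA2 and AC3 were the lowest libraries.

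**Figure D2:**
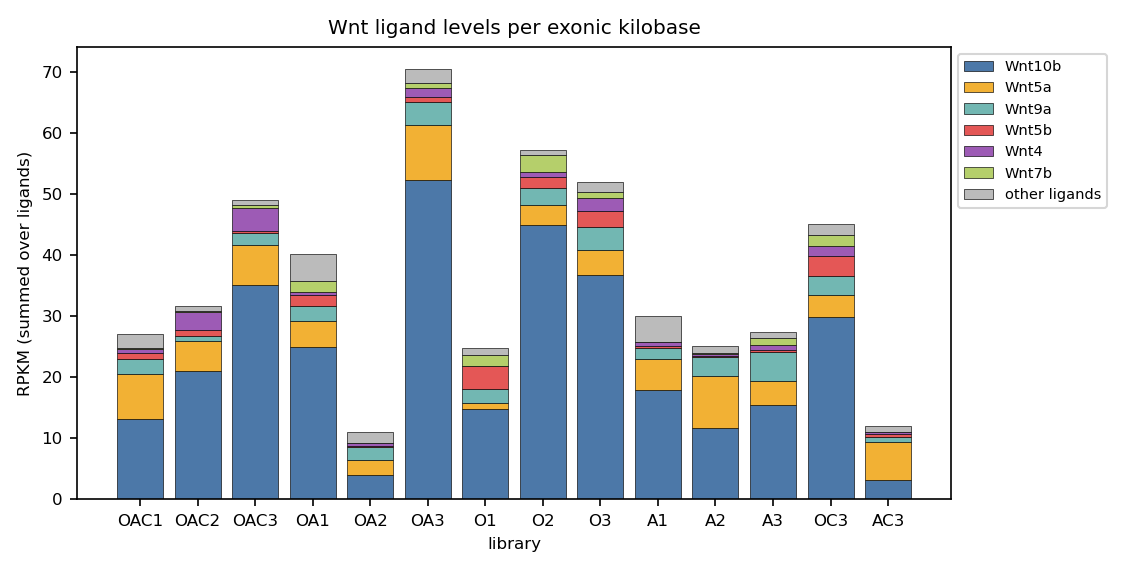
Wnt ligand levels in each library (x axis) as RPKM summed over ligands (y axis, from 0), with 6 ligands in colour and all others in grey. Wnt10b is the largest share in 13 of 14 libraries, and OA2 and AC3 have the smallest sums.

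Wnt5b (ENSMUSG00000030170), a relative of Wnt5a, was a minor ligand that was high in O. It stood at 9.99, 4.63 and 6.94 CPM in the O libraries and at 0.823, 0.729 and 0.687 CPM in the A libraries. The OA libraries had 4.81, 0.804 and 2.38 CPM, and the OAC libraries 2.87, 2.39 and 0.908 CPM. Every O library lay above every A and every OAC library, whereas OA1 reached the range of O and OA2 that of A. The log2 fold change of O over A was 3.26 ± 0.69 (SE), with an edgeR Benjamini-Hochberg FDR of 0.172 and a DESeq2 adjusted p of 0.000144. Leaving out each library in turn kept the DESeq2 call of Wnt5b, with log2 fold changes of 2.96 to 3.58. The log2 fold change was 1.83 ± 0.66 for OA over A, 1.45 ± 0.65 for OAC over A and -1.80 ± 0.65 for OAC over O, and no adjusted p of these passed. Without OA1, the value of Wnt5b for OA over A was 1.09 by edgeR.

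The RefSeq promoter of Wnt5b (GRCm38.p6; 250 bases before to 50 after the gene start) holds a TCF/LEF motif match, as does that of Lef1, the transcription factor described below. The letters searched were CTTTGAA, its variant with a changed last base CTTTGAT, and the related pair that starts alike, namely CTTTGTA as well as CTTTGTT, each on both strands, with no overlap with another motif considered. The match is in capitals with 10 bases on each side, written on the gene's strand. The windows lie at chr6:119449441-119449467 (minus strand, match starting 71 bases before the gene start) and chr3:131156137-131156163 (plus strand, 147 bases before).
Wnt5b: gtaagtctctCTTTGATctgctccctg
Lef1: aacctcagaaTACAAAGtaggattgca
Of 41 promoter windows of the 33 member symbols found in RefSeq, 5 held a match (12.2%), namely those of Fzd7, Lef1, Wnt11, Wnt3 and Wnt5b, against 16.9% of all 32851 promoter windows. A match describes these letters alone, and the data here do not measure binding.

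The other tested ligands were given by range: Wnt9a lay between 2.58 and 15.7 CPM, Wnt4 between 0.446 and 16.1, Wnt7b between 0.107 and 12.1, and Wnt2, Wnt2b, Wnt6 and Wnt11 reached at most 5.10 CPM. Wnt2b was lower in O than in A at an unadjusted edgeR p of 0.024 (log2 fold change -2.10 ± 0.80), with overlapping groups. Wnt1, Wnt3, Wnt3a, Wnt7a, Wnt8a, Wnt8b, Wnt9b, Wnt10a and Wnt16 did not pass the filter on low counts. Among these, Wnt10a reached 4.51 CPM in OA1 and Wnt16 1.70 CPM in OA3.

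Among the receptors, Ror2 (ENSMUSG00000021464), a receptor tyrosine kinase for Wnt5a, showed the lowest edgeR p of any member in the 6 comparisons between groups, while by DESeq2 its adjusted p and that of Wnt5b for O over A were nearly equal. It stood at 11.1, 12.6 and 18.5 CPM in the A libraries. The O libraries had 111.9, 59.9 and 45.8 CPM, the OA libraries 84.6, 57.3 and 36.1 CPM, and the OAC libraries 30.9, 65.2 and 31.7 CPM. All 9 libraries of the groups that form bone lay above all 3 A libraries. Whether fewer cells expressed Ror2 or each cell held less of its RNA cannot be told apart in bulk libraries.

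The log2 fold change of Ror2 was 2.36 ± 0.47 for O over A (edgeR Benjamini-Hochberg FDR 0.16, DESeq2 adjusted p 0.000145). It was 2.08 ± 0.46 for OA over A (edgeR FDR 0.649, DESeq2 adjusted p 0.00514) and 1.60 ± 0.45 for OAC over A (edgeR FDR 1.0, DESeq2 adjusted p 0.114). The DESeq2 call for O over A held without each library in turn, at log2 fold changes of 1.92 to 2.69. The call for OA over A was lost without OA1 (DESeq2 adjusted p 0.109), A1 (0.0694) or A2 (0.0585). Ror1, the relative of Ror2, ranged from 0.0 CPM in OAC2 to 6.44 CPM in OAC1 without following the groups. Ryk, an atypical receptor kinase and the most abundant member per length (median 47.2 RPKM), stood at 175.7, 198.8 and 181.2 CPM in OAC, 143.4, 241.1 and 176.1 in OA, 143.9, 152.2 and 153.0 in O, and 121.2, 155.1 and 148.6 in A. The OAC libraries of Ryk lay above those of O and A, and OA2 was the highest of all.

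**Figure D3:**
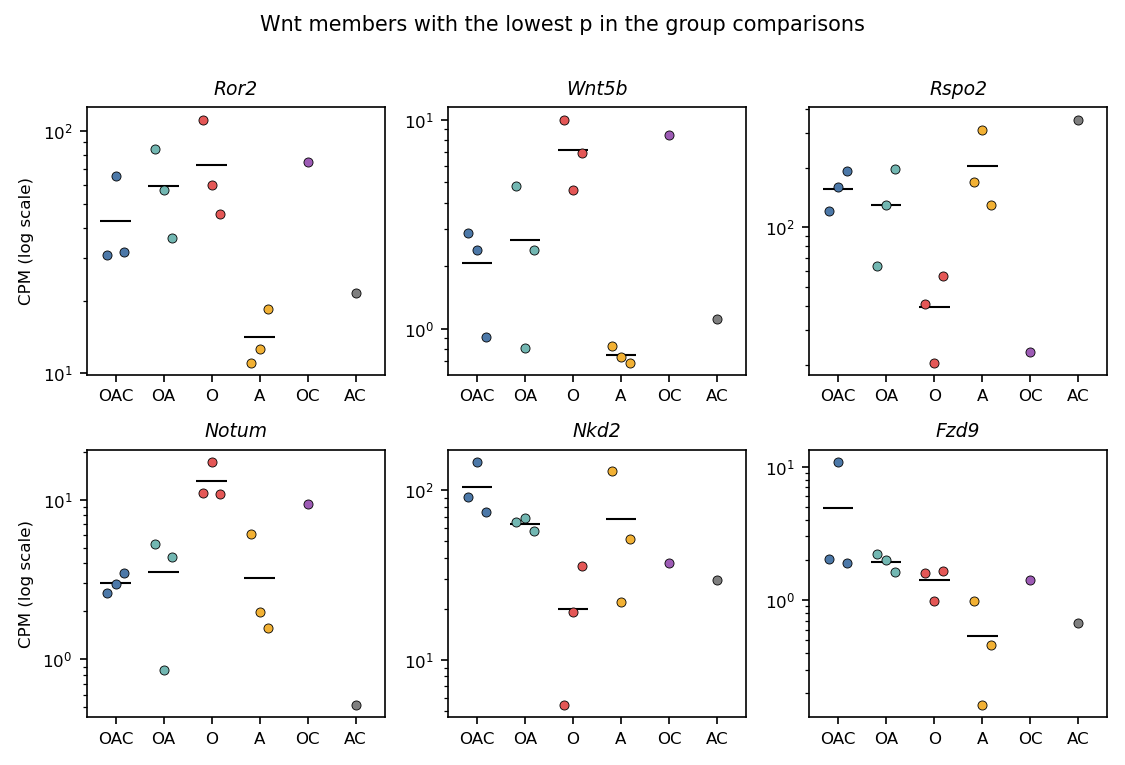
CPM on a log axis for 6 Wnt members in the 14 libraries by group (x axis); each point is 1 library and each bar a group mean (n = 3), with OC and AC at 1 library each. The Ror2 points of O, OA and OAC (30.9 to 111.9 CPM) lie above those of A (11.1 to 18.5 CPM), and the O points of Rspo2 (20.6 to 57.0 CPM) lie below those of the other 3 groups.

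Of the 11 frizzled entries 9 were tested, and both Fzd10 entries had at most 1 read in any library. Fzd2 was the most abundant per length (median 23.1 RPKM). It stood at 123.2, 103.8 and 60.4 CPM in OAC, 89.8, 130.1 and 59.9 in OA, 164.0, 47.3 and 72.5 in O, and 133.4, 45.5 and 80.5 in A, with overlap between all groups. Fzd1 (58.9 to 162.2 CPM) and Fzd7 (31.7 to 100.4 CPM) were of the same order, whereas Fzd3 and Fzd4 reached at most 14.8 CPM.

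Fzd9, a low frizzled, had 0.987, 0.162 and 0.458 CPM in the A libraries. The OAC libraries had 2.03, 10.8 and 1.90 CPM, the OA libraries 2.21, 1.98 and 1.61 CPM, and the O libraries 1.59, 0.974 and 1.65 CPM. All OAC and OA libraries lay above all A libraries, and OAC2 was far above the rest. The log2 fold change of OAC over A was 3.18 ± 0.83 (edgeR Benjamini-Hochberg FDR 1.0, DESeq2 adjusted p 0.0177). Without OAC2 it was 1.93 by DESeq2, and the DESeq2 call was lost (adjusted p 0.635), as it was without A2 (0.177) or A3 (0.136). Without A1 the edgeR log2 fold change rose to 3.96 for OAC over A, and that of OA over A from 1.84 to 2.62.

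Fzd5, a receptor of the beta-catenin pathway, stood at 39.9, 43.4 and 44.7 CPM in A, below 76.1, 124.4 and 98.5 in OAC and 124.2, 68.5 and 79.4 in OA. The O libraries had 24.6, 172.8 and 71.0 CPM and spanned the range of the others. Fzd8 had 24.0, 19.8 and 26.9 CPM in A, 34.8, 62.9 and 26.6 in OAC, 30.5, 44.2 and 27.5 in OA, and 33.4, 30.0 and 23.1 in O, a narrow range apart from OAC2. For OAC over A the log2 fold change was 1.22 ± 0.55 for Fzd5 and 0.81 ± 0.33 for Fzd8, at unadjusted edgeR p of 0.0486 and 0.0336. Without OAC2 the value of Fzd8 was 0.38 by edgeR. Fzd6 was lower in OA (4.11, 2.52 and 4.35 CPM) than in O (5.22, 13.7 and 21.9 CPM), and its other libraries spread from 0.754 in AC3 to 20.0 CPM in OC3. The Fzd6 log2 fold change of OA over O was -1.89 ± 0.77 (unadjusted edgeR p 0.0329), and the OAC libraries (8.38, 1.45 and 5.09 CPM) and A libraries (3.21, 8.23 and 17.4 CPM) overlapped both.

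The co-receptors Lrp5 and Lrp6 were expressed in every library. Lrp5, whose loss is known to lower bone mass, had 87.3, 106.0 and 127.3 CPM in O and 236.2, 168.2 and 163.3 CPM in A. OA had 209.5, 198.6 and 122.8 CPM, and OAC 212.9, 117.5 and 156.0 CPM. The O libraries lay below the A libraries and overlapped OA and OAC at their upper end. The log2 fold change of Lrp5 was -0.82 ± 0.29 for O over A and 0.73 ± 0.29 for OA over O, at unadjusted edgeR p of 0.0167 and 0.0298. Lrp6 had 36.0 CPM in OA2 and 62.7 CPM in O1, and at least 112.1 CPM in each of the other 12 libraries, with 163.8 to 229.9 CPM in OAC.

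Rspo2 (ENSMUSG00000051920), the secreted R-spondin that potentiates Wnt signals, was the second most abundant member per length (median 39.2 RPKM) and was lowest where clones did not form fat. It had 40.9, 20.6 and 57.0 CPM in the O libraries and 23.3 CPM in OC3. The A libraries had 170.5, 311.2 and 130.4 CPM, the OA libraries 63.5, 130.1 and 197.8 CPM, and the OAC libraries 120.8, 159.4 and 192.3 CPM. The O libraries did not overlap any of the other 3 groups, and OA1 was the nearest to them.

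For O over A the log2 fold change of Rspo2 was -2.37 ± 0.51 (edgeR Benjamini-Hochberg FDR 0.179, DESeq2 adjusted p 0.00088), and the DESeq2 call held without each library in turn (adjusted p at most 0.0397). For OAC over O it was 2.0 ± 0.50 (edgeR FDR 0.73, DESeq2 adjusted p 0.0241). That DESeq2 call was lost without OAC1 (adjusted p 0.0524), OAC2 (0.164), OAC3 (0.137), O1 (0.102) or O2 (0.106). For OA over O it was 1.72 ± 0.50 (edgeR FDR 0.851, DESeq2 adjusted p 0.115).

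Rspo1 was found in O1 at 4.01 CPM (63 reads) and at no more than 2 reads in any other library, so it was not tested. Rspo3 ranged among the 12 replicated libraries from 0.0 CPM in O1 to 5.04 CPM in OA2, where the next highest had 1.52 CPM. It reached 9.67 CPM in OC3 and 11.3 CPM in AC3, above all 12. The summed R-spondin level ran from 6.8 RPKM in O2 to 111.0 RPKM in AC3.

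Lgr4, the most abundant R-spondin receptor per length (median 4.59 RPKM), had 45.9, 17.9 and 87.3 CPM in OAC, 23.0, 30.8 and 43.2 in OA, 7.07, 19.1 and 28.6 in O, and 35.8, 25.4 and 22.3 in A. All groups overlapped one another, and the log2 fold change of OAC over O was 1.46 ± 0.60 at an unadjusted edgeR p of 0.0333. Lgr5, a stem cell marker in several epithelia, was high in OAC2 (36.8 CPM), OC3 (12.9 CPM) and O3 (9.19 CPM) and at most 4.61 CPM in the other 11 libraries. Its remaining values were 0.574 and 1.66 CPM in OAC, 0.0501, 1.55 and 0.852 in OA, 1.85 and 1.14 in O, 4.61, 0.0 and 1.87 in A, and 3.81 in AC3. OAC2 was also the library with the highest Schwann and neural marker sum (30.3 CPM), and the part of such cells in the Lgr5 value was not tested. Lgr6 reached at most 6.63 CPM.

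Axin2, a beta-catenin target that limits the pathway and a common readout of it, and Lef1, a transcription factor that is itself induced, were read in every library. Axin2 had 4.81, 8.74 and 10.0 CPM in OAC, 24.7, 1.93 and 19.7 in OA, 9.04, 16.7 and 20.4 in O, 9.87, 1.54 and 6.68 in A, 19.9 in OC3 and 0.397 in AC3. Axin2 groups overlapped: OA2, A2 and AC3 were low, and OA1, O3 and OC3 were high. Lef1 had 18.1, 10.2 and 4.50 CPM in OAC, 14.6, 7.88 and 4.31 in OA, 9.55, 13.6 and 14.7 in O, 7.98, 4.82 and 4.35 in A, 20.1 in OC3 and 0.556 in AC3. The O libraries of Lef1 lay above the A libraries, at a log2 fold change of 1.14 ± 0.56 and an unadjusted edgeR p of 0.0668.

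Tcf7, the other transcription factor, had 9.27, 26.1 and 20.1 CPM in OAC, 77.0, 2.63 and 72.9 in OA, 25.7, 140.7 and 20.0 in O, and 16.5, 3.04 and 7.59 in A. OC3 had 93.7 CPM and AC3 0.913 CPM. The O libraries lay above the A libraries (log2 fold change 2.78 ± 1.15, unadjusted edgeR p 0.0358), while OA2 lay below all A libraries.

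Notum, a secreted enzyme that inactivates Wnt ligands, had 11.0, 17.2 and 10.9 CPM in O. OAC had 2.60, 2.96 and 3.48 CPM, OA 5.26, 0.858 and 4.39 CPM, and A 6.09, 1.99 and 1.56 CPM. The O libraries lay above all libraries of the other 3 groups, with OC3 next at 9.44 CPM. The log2 fold change was 2.02 ± 0.68 for O over A (edgeR Benjamini-Hochberg FDR 0.366, DESeq2 adjusted p 0.0524), and 2.87 by edgeR without A1. It was -2.11 ± 0.69 for OAC over O and -1.89 ± 0.68 for OA over O, at unadjusted edgeR p of 0.0111 and 0.0186.

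Nkd2, which binds Dishevelled and restrains Wnt signalling, was low in O. It had 5.41, 19.1 and 35.6 CPM in O, 91.0, 146.5 and 74.2 in OAC, 64.6, 68.8 and 57.5 in OA, and 130.4, 22.0 and 51.4 in A. The O libraries lay below the OAC and OA libraries and overlapped A. The log2 fold change of OAC over O was 2.37 ± 0.71 (edgeR Benjamini-Hochberg FDR 0.73, DESeq2 adjusted p 0.0552), and 3.08 by edgeR without O3. Its relative Nkd1 ranged from 1.38 CPM in A2 to 75.4 CPM in O1 with overlapping groups.

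Rnf43, the ubiquitin ligase with the higher median level per length, had 16.9, 49.7 and 9.79 CPM in OAC, 51.2, 1.98 and 17.6 in OA, 8.34, 27.1 and 22.0 in O, and 32.6, 0.162 and 10.5 in A. The spread within each group was as wide as that between groups, and A2, AC3 (0.556 CPM) and OA2 were the lowest. Znrf3 varied less, from 6.27 CPM in OA2 to 21.9 CPM in OC3.

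**Figure D4:**
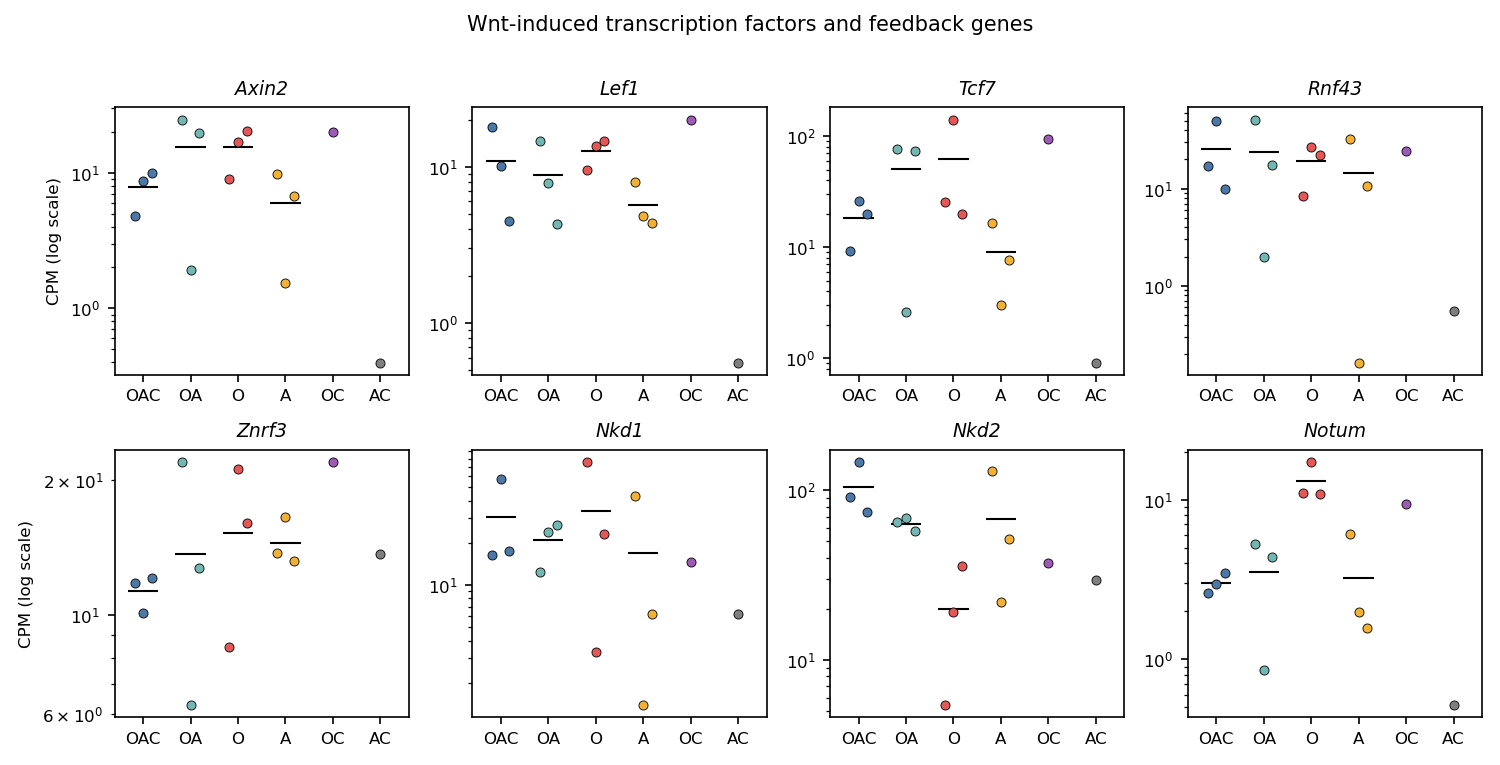
CPM on a log axis for 8 Wnt members (transcription factors, ubiquitin ligases and feedback genes) in the 14 libraries by group (x axis). Each point is 1 library and each bar a group mean (n = 3), with OC and AC at 1 library each. AC3 is the lowest point for Axin2, Lef1, Tcf7 and Notum.

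The low values of these 8 genes (Axin2, Lef1, Tcf7, Nkd1, Nkd2, Notum, Znrf3, Rnf43) often fell in AC3, A2 and OA2. AC3 was the lowest of the 14 libraries for 4 of the 8 (against 12.1% of all tested genes) and among the 3 lowest for 6 (26.9% of all tested genes). The clone A2 was among the 3 lowest for 5 of the 8 (18.1% of all tested genes), and so was OA2 (37.9%). OA1 and OC3 were each among the 3 highest for 4 of the 8 (21.0% and 25.5% of all tested genes). These counts describe single libraries and were not tested.

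The OC3 and AC3 pools differed widely in 5 of these 8 genes, with 1 library each and therefore no replicate check. The ratio of OC3 to AC3 was 103.0 for Tcf7 (95% exact interval of the 2 counts 68.3 to 162.0), 50.2 for Axin2 (27.1 to 105.0), 43.3 for Rnf43 (25.6 to 79.7), 36.2 for Lef1 (21.4 to 66.6) and 18.3 for Notum (10.5 to 34.8). The intervals cover counting error only. The ratios of the other 3 genes were nearer to 1, at 2.37 for Nkd1, 1.61 for Znrf3 and 1.26 for Nkd2. Among the ligands, the ratio was 48.7 for Wnt7b, 9.32 for Wnt10b and 7.57 for Wnt5b. It was 0.0661 for Rspo2 (0.0608 to 0.0717), the reverse direction, and 0.587 for Wnt5a. More than 4-fold higher values in OC3 were seen for 12 of 37 members (32.4%), against 3.66% of all tested genes, and more than 4-fold lower values for 3 members (8.11%), against 2.72%. The GC trend was -0.55 in each pool, and the part of GC content in these ratios was not tested.

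The number of members past each threshold was as follows. For O against A, 8 members had an unadjusted edgeR p under 0.05, beside 9.89% of all tested genes. Of these, 4 were higher (Ror2, Wnt5b, Notum, Tcf7; 4.92% of all tested genes) and 4 lower (Rspo2, Lrp5, Wnt2b, Nkd2; 4.97%). DESeq2 called 3 members, beside 3.03%, while edgeR's FDR called 0 members, beside 0.0072%. The groups did not overlap for 8 members, beside 15.6%: 5 were higher (Ror2, Wnt5b, Notum, Tcf7, Lef1), beside 7.36%, and 3 lower (Rspo2, Lrp5, Fzd7), beside 8.28%. The members' median log2 fold change was 0.29, against 0.03 over all tested genes.

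For OA against A, 3 members had an unadjusted edgeR p under 0.05, beside 5.27% of all tested genes. All 3 were higher in OA (Ror2, Wnt5b, Fzd9), beside 2.99%, and 0 lower, beside 2.29%. DESeq2 called 1, beside 0.937%, edgeR's FDR called 0, beside 0.0072%, and the groups did not overlap for 4 (Ror2, Fzd5, Fzd8, Fzd9), beside 11.0%. All 4 were higher, beside 5.16%, and 0 lower, beside 5.81%. For OAC against A, 5 members had an unadjusted edgeR p under 0.05, beside 3.58%. All 5 were higher in OAC (Fzd9, Ror2, Fzd8, Fzd5, Wnt5b), beside 1.92%, and 0 lower, beside 1.66%. DESeq2 called 1, beside 0.411%, edgeR's FDR called 0, beside 0.0072%, and the groups did not overlap for 6, beside 10.8%. Of these, 5 were higher (Ror2, Fzd5, Fzd9, Wnt5b, Ryk), beside 4.79%, and 1 lower (Znrf3), beside 6.02%. The median log2 fold change of the members was 0.29 for OA over A and 0.43 for OAC over A, against -0.03 over all tested genes in each.

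For OA against O, 6 members had an unadjusted edgeR p under 0.05, beside 5.43%: 3 were higher (Rspo2, Lrp5, Nkd2), beside 3.2%, and 3 lower (Notum, Fzd6, Wnt5b), beside 2.24%. DESeq2 called 0, beside 0.303%, edgeR's FDR called 0, beside 0.0%, and the groups did not overlap for 4, beside 8.2%: 2 were higher (Rspo2, Nkd2), beside 4.56%, and 2 lower (Notum, Fzd6), beside 3.63%. For OAC against O, 7 members had an unadjusted edgeR p under 0.05, beside 6.02%: 5 were higher (Rspo2, Nkd2, Fzd7, Lgr4, Fzd9), beside 3.2%, and 2 lower (Notum, Wnt5b), beside 2.82%. DESeq2 called 1, beside 0.728%, edgeR's FDR called 0, beside 0.0%, and the groups did not overlap for 11, beside 11.5%. Of these, 7 were higher in OAC (Rspo2, Nkd2, Fzd9, Fzd7, Fzd1, Wnt5a, Ryk), beside 5.75%, and 4 lower (Notum, Wnt5b, Wnt7b, Wnt11), beside 5.79%. For OAC against OA, no member had an unadjusted edgeR p under 0.05 (count 0, beside 1.17%), DESeq2 called 0 (0.0%), edgeR's FDR called 0 (0.0%), and the groups did not overlap for 3, beside 4.93%: 2 were higher (Nkd2, Lrp6), beside 2.11%, and 1 lower (Rspo3), beside 2.82%.

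**Figure D5:**
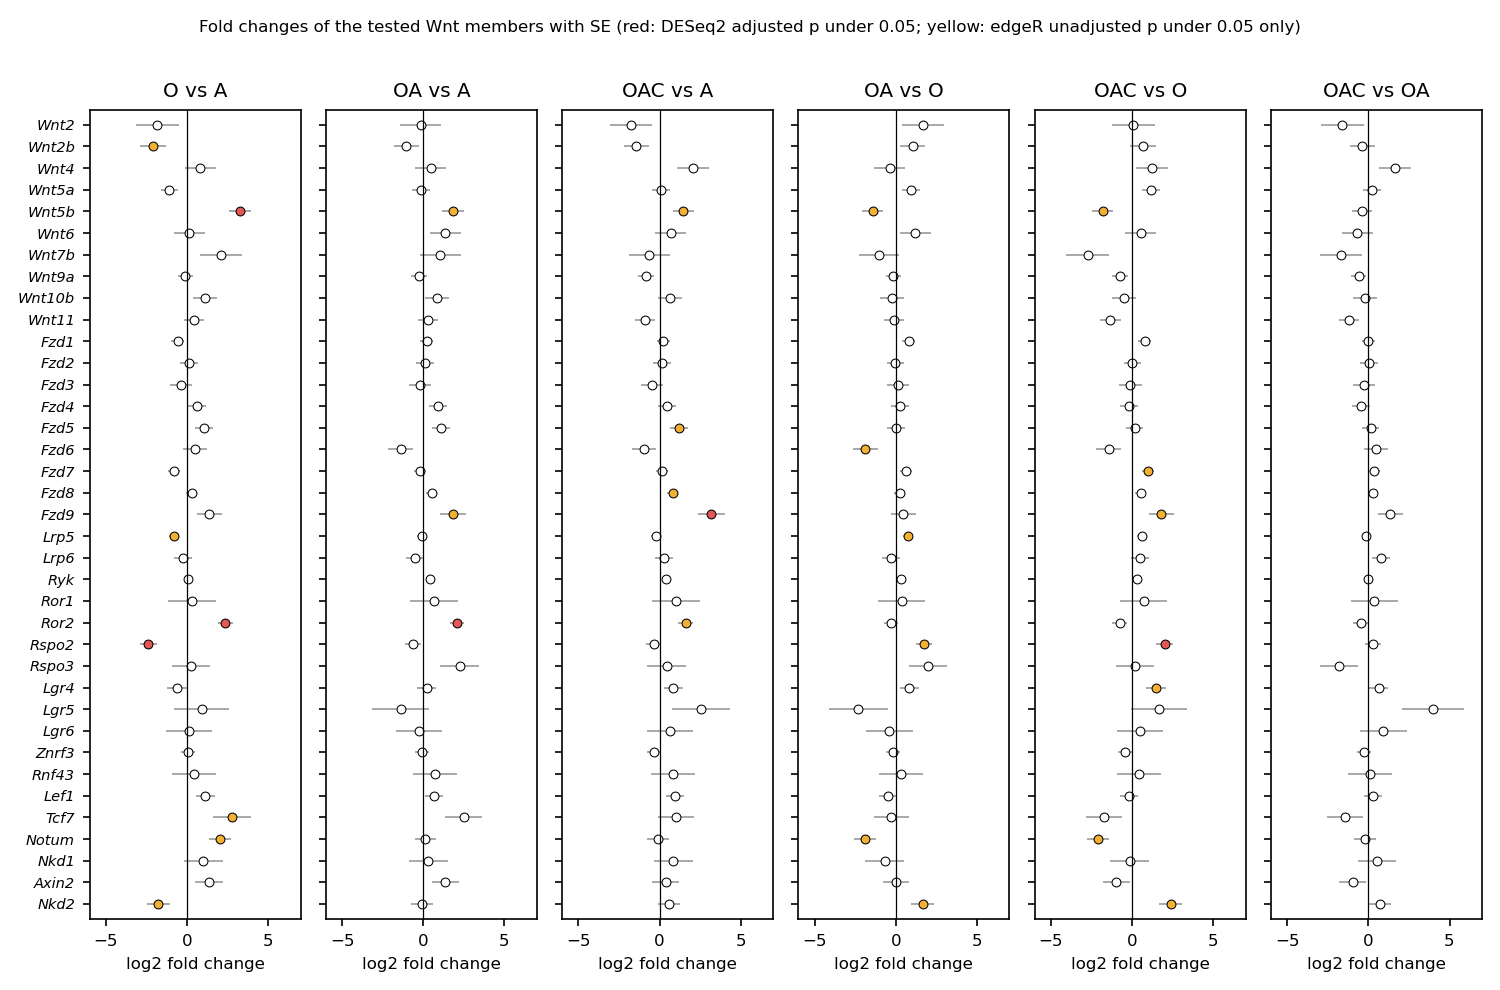
Log2 fold change with SE (edgeR) of the 37 tested Wnt members (rows) in the 6 comparisons between groups (panels); red marks a DESeq2 adjusted p under 0.05 and yellow an unadjusted edgeR p under 0.05 without a DESeq2 call. Red marks Ror2, Wnt5b and Rspo2 in O against A, Ror2 in OA against A, Fzd9 in OAC against A and Rspo2 in OAC against O.

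Grouping all 14 libraries by a single potential brought in OC3 and AC3. These 3 comparisons were chosen after the values had been seen and use the same libraries as those above, so they describe the pattern and do not support it independently. Ror2 separated the 10 libraries that form bone (lowest 30.9, highest 111.9 CPM) from the 4 that do not (11.1 to 21.4 CPM), with a log2 difference of 1.91 ± 0.36 (edgeR Benjamini-Hochberg FDR 0.0901, DESeq2 adjusted p 1.34e-05). It was the 1 member whose libraries did not overlap by bone potential, beside 1.06% of all tested genes. edgeR's FDR called 0 members, beside 0.0%, and DESeq2 called 4 (Ror2, Wnt5b, Fzd9 and Tcf7, all higher), beside 2.72%. Leaving out OAC2 moved the Fzd9 log2 difference by edgeR from 2.18 to 1.57, and leaving out A1 that of Tcf7 from 2.8 to 3.66. By DESeq2 the Fzd9 log2 difference was 1.59 with all libraries. DESeq2 gave no adjusted p for Fzd4 and Rspo3 by bone potential, so these members could not be called.

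Rspo2 separated the 10 libraries that form fat (63.5 to 352.2 CPM) from the 4 that do not (20.6 to 57.0 CPM). Its log2 difference was 2.37 ± 0.44, and it was the 1 member called by edgeR (Benjamini-Hochberg FDR 0.0479; DESeq2 adjusted p 1.96e-06), beside 0.18% of all tested genes. The edgeR call was lost when any of 12 of the 14 libraries was left out (FDR up to 0.163 without OC3) and kept without OA1 (0.0275) or OA3 (0.049), with log2 differences of 2.18 to 2.69. Notum ran the other way, from 0.516 to 6.09 CPM in the libraries that form fat and from 9.44 to 17.2 CPM in the others (log2 difference -2.03 ± 0.48, edgeR FDR 0.0979, DESeq2 adjusted p 0.00464). Rspo2 and Notum were the 2 members that did not overlap by fat potential, beside 1.71%. DESeq2 called 5 members, beside 3.51%: Rspo2, Lrp5 and Nkd2 were higher and Notum and Wnt5b lower. By cartilage potential (5 against 9 libraries) edgeR's FDR and DESeq2 each called 0 members, beside 0.0%, the groups did not overlap for 0, beside 0.166%, and 3 (Lgr4, Lrp6, Fzd9) had an unadjusted edgeR p under 0.05, beside 4.15%. All 3 were higher, beside 1.25%, and 0 lower, beside 2.9%. The Fzd9 log2 difference by cartilage potential fell from 1.37 to 0.22 by edgeR without OAC2. DESeq2 gave no adjusted p for Rspo3 by fat potential and none for Fzd4 by cartilage potential.

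The other genes of the pathway were read from lists of Wnt secretion (2 tested), cytoplasmic and nuclear transducers (24), planar polarity (8), secreted antagonists (8) and other Wnt-responsive genes (8). edgeR's FDR called 0 of them in each of the 6 comparisons (at most 0.0072% of all tested genes), and DESeq2 called 3 genes. These were Sfrp1, Tnfrsf19 and Apc2 for O against A, beside 3.03% of all tested genes. Tnfrsf19 was also called for OA against A (0.937%) and Sfrp1 for OAC against O (0.728%), with none in the remaining comparisons (at most 0.411%). Sfrp1, a secreted Wnt antagonist, had 0.127, 5.68 and 16.4 CPM in O and 8.53 CPM in OC3, against 854.0, 83.96 and 318.6 in A, 678.6, 223.0 and 40.3 in OAC, 161.6, 134.2 and 50.3 in OA, and 511.3 in AC3. Its O libraries lay below those of the other 3 groups, as for Rspo2. The log2 fold change of Sfrp1 was -5.81 ± 1.54 for O over A (edgeR Benjamini-Hochberg FDR 0.257, DESeq2 adjusted p 0.000197) and 5.39 ± 1.51 for OAC over O (edgeR FDR 0.73, DESeq2 adjusted p 0.00285). Tnfrsf19, a Wnt-responsive receptor, was higher in O than in A (4.36 ± 1.55, DESeq2 adjusted p 0.0186) and in OA than in A (4.58 ± 1.57, DESeq2 adjusted p 0.0282), with OA2 at 0.107 CPM and below A. Apc2, of the destruction complex family, was higher in O than in A (1.65 ± 0.52, DESeq2 adjusted p 0.0466), led by O1 at 66.2 CPM.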

How the data were processed

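Per the labels' protocols, oligo(dT)-enriched RNA of 14 libraries was sequenced with a strand-specific method. The authors deposited 1 table of whole-number read counts per gene. CASAVA 1.8.0, bedtools 2.11 and mouse build mm9 are named in the submitters' processing notes. Aligner, read filters and strand setting of the counting: not given in the sources used here, so counts of overlapping genes are uncertain.

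CPM was the count divided by the TMM-adjusted library size. RPKM was CPM per kilobase of the exonic length in the deposited table. Of 23331 genes, the 13896 that reached 1 CPM in 3 or more libraries were tested with edgeR 4.0.16 (quasi-likelihood F test, robust, 6 group means, 8 residual degrees of freedom) in R 4.3.3, with Benjamini-Hochberg adjustment per comparison and a threshold of 0.05. Unadjusted p-values in the text come from that fit across all genes, and SE was derived from its F statistic. DESeq2 1.42.0 (Wald test) was the second test and gave no adjusted p for 126 genes in at least 1 comparison. Both fits were also run on simulated counts, and the outcome is not given here. Intervals of ratios are exact and cover counting error only, since copies made in amplification were not identified. Promoter sequences came from RefSeq on GRCm38.p6, a later build than mm9.

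Values were given in every library of the replicated groups for Axin2 and Lef1, for the most abundant member of each role and for DESeq2 calls. The same holds for up to 4 members of lowest p under 0.05 per comparison. It also holds for tested members with 1 library at least 10 times the median. Rspo3 and Lrp6 were exceptions and were given by range. OC3 and AC3 values were given for part of these members. The rest were given by range. Members and lists were chosen with earlier results of these data known. Alternatives were DESeq2 size factors, no count filter, a GC offset, a block by library number, robust estimation off, and leaving out libraries.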

Additional observations from a re-analysis of the deposited data

Results flagged for a closer look

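Among the members named in the comparisons by single potential, 24 groups of 4 to 10 libraries were examined for a library far from the others with Dixon's ratio (gap to the nearest library over the whole range), and 3 were marked. Chance marks about 1 in 20 such groups only where values are normally distributed. CPM were used here without a log scale, and the groups share libraries and hold members named for low p. The share that chance would mark here is therefore not known. Fzd9 in OAC2, at 10.8 CPM, stood apart from the other libraries that form bone (next 2.21 CPM, ratio 0.87 among 10) and from the others that form cartilage (next 2.03 CPM, ratio 0.87 among 5). Wnt5b in OA1, at 4.81 CPM, stood apart from the other libraries that form fat (next 2.87 CPM, ratio 0.47 against a critical value of 0.466 among 10).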

How the results depend on the processing

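In the comparisons where a member was named for its low p or a DESeq2 call, no log2 fold change changed sign under any alternative run. These fold changes were picked as strong ones in the same libraries, so a stable sign was largely set beforehand. Other fold changes were not checked in this way. edgeR called 0 members in each of the 6 comparisons between groups, also when each library was left out in turn (0 to 0), whereas DESeq2 called 3 (O against A), 1 (OA against A), 1 (OAC against A) and 1 (OAC against O). Without each library in turn, the DESeq2 counts ran from 3 to 4 for O against A, 0 to 3 for OA against A, 0 to 1 for OAC against A and for OA against O, and 0 to 2 for OAC against O. Without OA2 and O1, chosen after seeing the data for their GC trends, DESeq2 called 7 (O against A; 3.56% of all tested genes, against 3.03% with all libraries), 3 (OA against A; 1.6%, against 0.937%), 2 (OAC against A; 0.661%, against 0.411%) and 2 (OAC against O; 1.0%, against 0.728%). By single potential, DESeq2 called 4 members for bone and 5 for fat, and without each library in turn edgeR called 0 to 1 for bone and 0 to 2 for fat. The edgeR count for fat fell from 1 to 0 with DESeq2 size factors (Rspo2 FDR 0.0514), with the replicate block (0.058), with the replicate block and a GC offset (0.0502) and without OA2 and O1 (0.118); the cause was not tested. Same-number correlations of deviations from group means were over 0.1 in 6 of 6 cases for number 3, the pools (0.29 to 0.76), and in 5 of 12 for numbers 1 and 2 (-0.58 to 0.47), so the pools deviated together while numbers 1 and 2 did not pair the samples throughout. On the single clones alone edgeR called 0 members in the 6 comparisons. With the replicate block, edgeR called 0 members in the 6 comparisons, and DESeq2 called 4 for O against A. The share of all tested genes called by DESeq2 was not taken with that block or with single libraries left out. Those DESeq2 counts therefore cannot be told from a change over all genes. Ligands and receptors under 1 CPM rest on few reads, which limits the precision of their fold changes.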

Other observations

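Several members lay outside the range of the 12 replicated libraries in the 2 pools without a replicate. AC3 lay above all 12 for 5 of the 37 tested members (13.9% of all tested genes did) and below all 12 for 8 (13.3%). OC3 lay above for 5 (10.1%) and below for 0 (9.06%). In both pools the number of members above all 12 was thus near the share over all tested genes. The frizzled receptor Fzd4 reached 14.8 CPM in AC3, where the highest of the 12 had 5.79 CPM. The co-receptor Lrp6 reached 249.1 CPM in OC3 and 327.7 CPM in AC3, against at most 236.0 CPM in the 12. The ligand Wnt11 reached 2.502 CPM in OC3, against at most 1.36 CPM. Fzd6 had 0.754 CPM in AC3, against at least 1.45 CPM in the 12.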
